A study of Mus musculus with 8 samples.

Results

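The genes described here were interferon gamma, both chains of its receptor, an early target gene and the CXCR3 chemokine axis. They are Ifng, Ifngr1, Ifngr2, Irf1, Cxcl9, Cxcl10 and Cxcr3, taken by name from each count table. All 7 were listed in each of the 8 libraries, among 24405 genes in all. The libraries were single-cell Microwell-seq libraries, in which cells are lysed in small wells and their RNA is counted by unique molecular identifiers (UMIs). Organs of BALB/c donors had been placed in C57BL/6 recipients, both 8 weeks of age and given no immunosuppressant, and cells were taken 7 days later. Every label gives the strain BALB/c, the sex male and the age of 8 weeks. There was 1 library for each of 8 conditions, namely blood mononuclear cells (PBMC) and tissue-infiltrating lymphocytes (TIL) for each of 3 grafted organs, heart, liver and kidney, and parenchymal cells (PC) for the last 2 of these. The study used 2 recipients for each organ, and whether their cells were pooled is not stated in the sources used here. Donor and recipient cells were not told apart, and no ungrafted or syngeneic control was analysed here. No group received treatment, and the study treats its heart and kidney grafts as rejected and its liver grafts as tolerated, so that organ and outcome cannot be told apart. Each difference below is between 1 library and another.

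Interferon gamma is the cytokine that activated T cells and natural killer (NK) cells secrete. It binds a receptor made of IFNGR1, the ligand-binding chain, and IFNGR2, the signalling chain, and the kinases JAK1 and JAK2 carry the signal on. Gamma-activated sites (GAS) are the DNA elements of its target genes such as Irf1, itself a transcription factor of later targets. CXCL9 and CXCL10 are chemokines that interferon induces in macrophages, endothelium and stroma. Both bind CXCR3, a receptor of activated T cells and NK cells, and in rejecting grafts the axis is known for drawing such cells into the organ.

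In GRCm38, Ifng (ENSMUSG00000055170) lies at chr10:118441046-118445892 on the plus strand and Ifngr1 (ENSMUSG00000020009) at chr10:19591949-19610229 on the plus strand. Ifngr2 (ENSMUSG00000022965) lies at chr16:91547072-91565623 and Irf1 (ENSMUSG00000018899) at chr11:53770014-53778374, both on the plus strand. Cxcl9 (ENSMUSG00000029417) at chr5:92321347-92328079 and Cxcl10 (ENSMUSG00000034855) at chr5:92346638-92348889 are near neighbours on the minus strand. Cxcr3 (ENSMUSG00000050232) lies at chrX:101731535-101734269 on the minus strand. Gm49751 overlaps Ifng on the same strand, Gm17334 overlaps Irf1 on the other, and Art3 overlaps Cxcl10 on the other. Whether counting used strand is not given in the sources used here, so reads of Irf1 and Cxcl10 may not have been told apart from those of Gm17334 and Art3, and strand cannot separate Ifng from Gm49751.

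The 250 bases before the start of the target genes were searched for letters through which interferons are known to act. They were read from RefSeq (GRCm38.p6) and searched on both strands for GAS (TTCNNNGAA) and for the core of an interferon-stimulated response element, or ISRE (GAAA, any 2 bases and GAAA again). Irf1 is shown as the early target, and Cxcl9 and Cxcl10 as the pair of chemokines compared below, each 5′ to 3′ on the strand of its gene, with the motif in capitals. Their positions are chr11:53769764-53770013 on the plus strand, chr5:92348890-92349139 on the minus strand and chr5:92328080-92328329 on the minus strand.
Irf1: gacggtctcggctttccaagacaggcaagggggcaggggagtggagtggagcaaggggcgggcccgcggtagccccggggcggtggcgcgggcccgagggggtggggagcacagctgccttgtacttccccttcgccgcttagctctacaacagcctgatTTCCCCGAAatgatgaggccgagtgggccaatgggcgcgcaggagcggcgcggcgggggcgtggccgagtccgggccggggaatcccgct
Cxcl10: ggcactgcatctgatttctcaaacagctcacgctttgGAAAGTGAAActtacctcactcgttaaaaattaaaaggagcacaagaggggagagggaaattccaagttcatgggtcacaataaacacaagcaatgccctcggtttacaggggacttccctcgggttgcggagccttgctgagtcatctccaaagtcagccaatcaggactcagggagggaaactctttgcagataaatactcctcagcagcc
Cxcl9: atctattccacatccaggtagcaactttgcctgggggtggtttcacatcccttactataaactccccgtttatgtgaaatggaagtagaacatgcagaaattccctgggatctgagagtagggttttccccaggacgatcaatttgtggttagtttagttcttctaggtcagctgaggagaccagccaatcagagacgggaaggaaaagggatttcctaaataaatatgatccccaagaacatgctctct
The Irf1 stretch held 1 GAS, whose first base was at -90 from the start, and the Cxcl10 stretch held 1 ISRE core, at -213. No match stood in the Cxcl9 stretch. Ifng itself held 1 GAS, at -249, and Ifngr1, Ifngr2, Cxcr3 and a second listed start of Irf1 held neither motif. Of 27025 mouse genes with a listed start, 8.13% held GAS and 3.46% the ISRE core in a stretch of this length. A match is a match of letters and not a measured binding site. Only these patterns were searched, so no match does not show that a stretch lacks an interferon element.

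The tables held 80000 barcodes, of which 47542 had at least 500 UMIs and were kept as cells. Total UMIs per library ran from 3418722 to 19171264, and the median UMIs of a kept cell from 581 to 1502. Cells were gated by marker UMIs: T cells by at least 2 UMIs of Cd3d, Cd3e, Cd3g and Trac, NK cells by at least 2 of the NK receptor genes Ncr1, Klrb1c, Klra8, Klra4 and Klra9, macrophages and monocytes by Csf1r, and neutrophils by Csf3r. Stromal cells, endothelial cells and B cells had gates of their own. Exactly 1 gate was met by 26798 cells, with 15365 T cells, 417 NK cells, 3490 macrophages, 6795 neutrophils, 196 stromal cells, 52 endothelial cells and 483 B cells. Another 13510 cells met no gate and 7234 met several, and neither kind is used below. A gate was described in a library only where it held at least 20 cells, and the stromal gate reached that in 1 library and the endothelial gate in another. Both kidney grafts lacked 20 NK cells and 20 neutrophils. The gated cells were led by their other markers: in each of the 33 sums of a gate and a library, the summed check markers of that gate, which had not set it, were highest in the gate itself. Single markers led less often. Of 6 T cell markers, 3 were highest in the T cell gate of heart PBMC, 4 in kidney PBMC and 6 in liver PC. In macrophages of heart PBMC, Lyz2 alone made 14591 of the 15231 CPM of their markers. Between 123 and 617 barcodes were shared by any pair of libraries.

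The organ genes of the libraries labelled heart TIL and liver TIL went against those labels. The library labelled heart TIL held 1056 UMIs of albumin (Alb) and 641 of Apoa1, both hepatocyte genes, and 2 of Myl7, the atrial myosin light chain. The library labelled liver TIL held 0 of Alb, 0 of Apoa1 and 128 of Myl7. The former held 24 and the latter 0 macrophages with the Kupffer cell genes Clec4f, Vsig4 and Cd5l, which mark the macrophages resident in liver, and liver PC held 70. They are called heart-labelled TIL and liver-labelled TIL below, and their graft-to-blood ratios are given again with both labels exchanged, and the calls without both libraries, after the results of the 7 genes and of the pathway list.

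Levels are UMIs of a gene in each 1000000 UMIs (CPM), summed over the cells of a gate, with exact 95% Poisson intervals in parentheses. With 1 library per condition there is no replicate, no test was run, and all intervals and floors cover counting error only. With the gates of a library put in order of level, neighbours had overlapping intervals in 23 of 25 pairs for Ifng, 20 for Ifngr1, 24 for Ifngr2, 21 for Irf1, 19 for Cxcl9, 19 for Cxcl10 and 23 for Cxcr3, so that most orders were not resolved at this depth. The macrophage gate held a different mix in blood and graft. Its monocyte-like cells had Chil3 or Ly6c2 and no C1qa, C1qb or C1qc UMI. They were 264 of 288, 341 of 403 and 21 of 27 cells in heart, liver and kidney PBMC. In heart-labelled and liver-labelled TIL they were 53 of 742 and 21 of 908. In kidney TIL, liver PC and kidney PC they were 9 of 62, 123 of 1018 and 2 of 42. The part of this mix in the macrophage ratios was not tested.

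Ifng was led by lymphocytes in 8 of 8 libraries, with T cells highest in 4 and NK cells in 4. T or NK cells led in 7 with at least 1000 UMIs per cell, with no minimum and with cells thinned to 500 UMIs. In heart, liver and kidney PBMC its level in T cells was 22.7 CPM (10.4 to 43.2), 12.4 (1.503 to 44.8) and 76.1 (52.7 to 106). These rested on 9, 2 and 34 UMIs, and the kidney interval lay above those of both other organs. In the grafts it was 201 CPM (188 to 214) in heart-labelled TIL, 291 (272 to 311) in liver-labelled TIL, 301 (265 to 340) in kidney TIL, 173 (164 to 182) in liver PC and 352 (278 to 439) in kidney PC. Every graft library thus stood above every blood library, and no interval of a graft met one of the blood.

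NK cells held few Ifng UMIs. Their level was 37.0, 52.6 and 108 CPM in heart, liver and kidney PBMC, from 2, 4 and 13 UMIs. It was 140 CPM in heart-labelled TIL, 298 in liver-labelled TIL and 55.6 in liver PC, from 4, 8 and 6 UMIs. The order of NK and T cells was set by overlapping intervals in each library but liver PC, where T cells (164 to 182) stood above NK cells (20.4 to 121). Since NK cells were so few, T cells carried most of the message: 69.0% of Ifng UMIs in heart-labelled TIL, 52.8% in liver-labelled TIL, 60.0% in kidney TIL, 67.8% in liver PC and 54.9% in kidney PC. Their part of all UMIs in the same libraries was 51.2%, 36.6%, 57.7%, 46.1% and 44.9%. In kidney TIL the interval of the Ifng share (55.2 to 64.7%) held that part, so the share was not apart from it. In kidney PC the interval was 46.4 to 63.3%, and 26 of the 78 T cell Ifng UMIs were of 1 cell. In heart PBMC and liver PBMC T cells held 20.5% and 9.09% of the Ifng UMIs, against 36.4% and 27.3% in the far more numerous neutrophils, whose level was only 5.69 and 2.96 CPM.

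**Figure D1:**
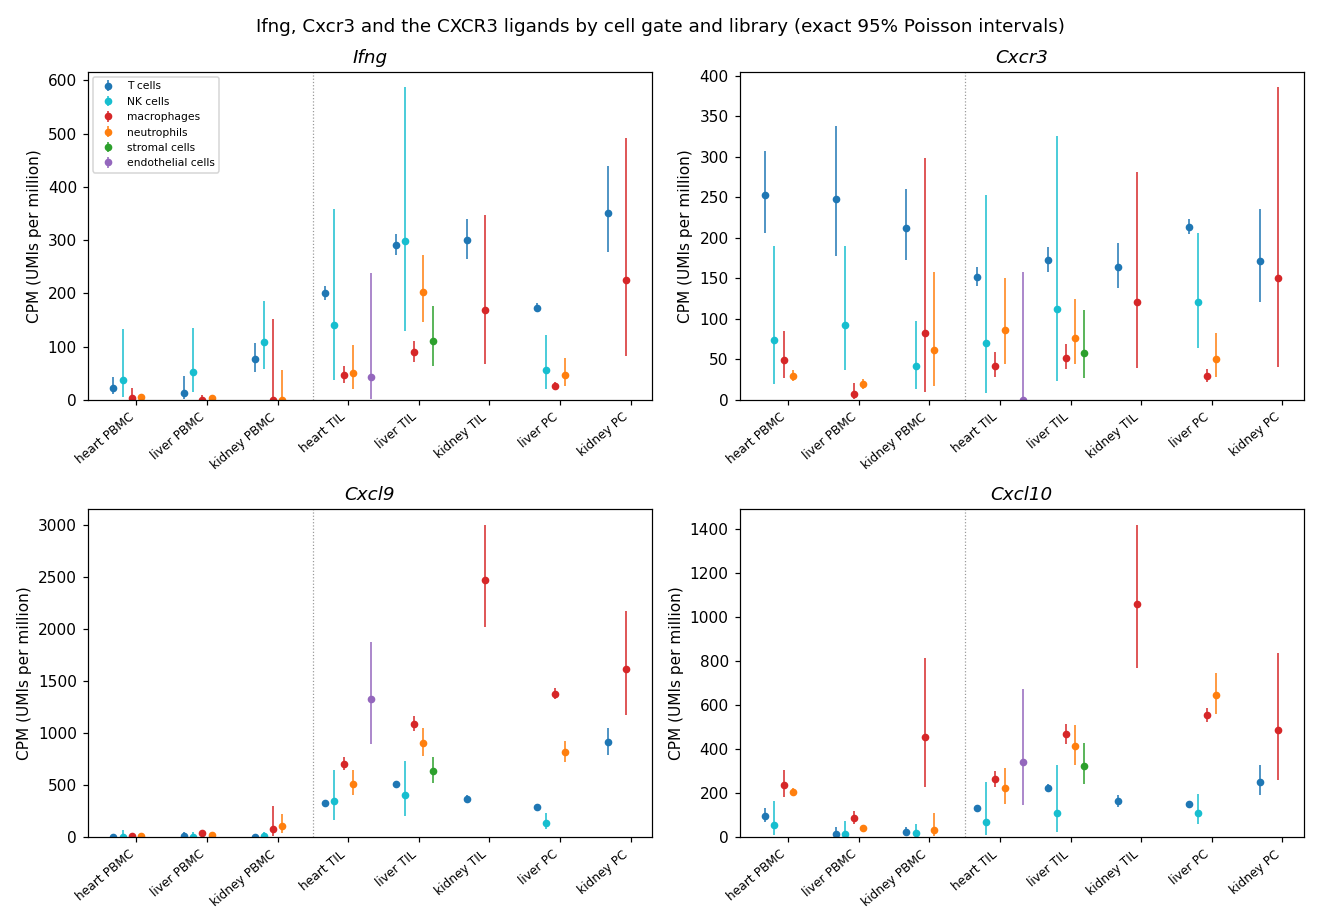
Levels of Ifng, Cxcr3, Cxcl9 and Cxcl10 in CPM (y axes) in each library (x axes), with 1 point per cell gate of at least 20 cells and exact 95% Poisson intervals, blood left of the dotted line and grafts right of it. Ifng in T cells was at most 76.1 CPM in blood and at least 173 in grafts, Cxcr3 was highest in T cells in each library, and Cxcl9 in macrophages was at most 82.8 CPM in blood and at least 706 in grafts.

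Ifng was at least 2-fold higher in T cells of the graft than of the blood in 5 of 5 comparisons. On the log2 scale with 1 CPM added, the ratio was 3.09 (2.21 to 4.27) for heart-labelled TIL, 4.44 (2.69 to 7.60) for liver-labelled TIL, 1.97 (1.46 to 2.55) for kidney TIL, 3.70 (1.94 to 6.85) for liver PC and 2.19 (1.61 to 2.83) for kidney PC. The intervals are exact conditional ones of the ratio with nothing added. Liver TIL and liver PC share the blood of liver PBMC, and kidney TIL and kidney PC share that of kidney PBMC, so these are not 5 independent comparisons. Among all genes with at least 10 UMIs in either sum, the background share at least 2-fold higher was 27.2%, 25.2%, 13.7%, 33.4% and 12.4% in the same order. The median log2 ratio of all those genes was 0.34, 0.09, 0.13, 0.31 and -0.10. With stricter gates, which ask for more marker UMIs, the kidney PC value was 0.93 and no longer past 2-fold.

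A few T cells held a large part of the Ifng message. The most UMIs in 1 T cell were 43 in heart-labelled TIL, 49 in liver-labelled TIL, 29 in kidney TIL, 32 in liver PC and 26 in kidney PC, against at most 2 in the blood. T cells with 3 or more Ifng UMIs, which numbered 38, 53, 13, 88 and 2, held 24.7%, 48.5%, 39.7%, 33.2% and 42.3% of the T cell Ifng UMIs. In kidney PC 26 of 78 UMIs came from 1 cell, and the level without it was 236 CPM (176 to 309), still above that of kidney PBMC. For comparison, the most Cxcr3 UMIs in 1 T cell of a graft were 7.

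To compare shares of positive cells at equal depth, each cell was thinned to 500 UMIs. The share of T cells with an Ifng UMI was then 7.98% in heart-labelled TIL, 8.72% in liver-labelled TIL, 9.84% in kidney TIL, 7.25% in liver PC and 9.12% in kidney PC. In the blood it was 0.498%, 0% and 3.77% in heart, liver and kidney PBMC. The 0 of 173 T cells in liver PBMC allows a share of up to 1.73% by a floor of 3 cells, and the exact interval reaches 2.11%. Without thinning the graft shares were 13.7%, 14.1%, 13.8%, 20.1% and 11.97%. Macrophages, which are not known as a main source of Ifng, gave thinned shares of 2.70%, 4.74%, 6.45%, 1.57% and 7.14% in the same grafts. The median depths were 820 UMIs in T cells and 840 in macrophages of heart-labelled TIL, and 1445 and 1693 in liver PC. In both kidney grafts the intervals of the T cell and macrophage shares overlapped.

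Most T cells that could be typed were CD8 T cells, the cytotoxic lineage: 3937 of 4828 T cells in liver PC had a Cd8a or Cd8b1 UMI and none of Cd4, and 103 the reverse. Ifng in CD8 T cells was 223 CPM (207 to 240) in heart-labelled TIL, 336 (310 to 363) in liver-labelled TIL, 290 (250 to 334) in kidney TIL, 169 (160 to 179) in liver PC and 175 (113 to 258) in kidney PC. In blood it was 38.4, 10.2 and 77.7 CPM in heart, liver and kidney PBMC. The few CD4 T cells, or helper lineage, had 179 CPM (48.7 to 457), 297 (142 to 546) and 210 (149 to 288) in heart-labelled and liver-labelled TIL and in liver PC, so that the lineages overlapped in each. Cycling T cells, with at least 2 UMIs of Mki67, Top2a, Ube2c and Birc5, had 166 CPM (154 to 179) in liver PC against 180 (167 to 192) in the other T cells. In kidney PC cycling T cells had 864 CPM, but 26 of the 29 UMIs were of the 1 cell named above.

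The ligand-binding chain Ifngr1 was found in every gate, and its graft-to-blood differences in T cells and macrophages were under 2-fold. T cells had 473 CPM (407 to 546), 286 (209 to 381) and 278 (231 to 331) in heart, liver and kidney PBMC. In the grafts they had 273 CPM (259 to 289) in heart-labelled TIL, 313 (294 to 334) in liver-labelled TIL, 178 (151 to 209) in kidney TIL, 295 (284 to 307) in liver PC and 171 (121 to 235) in kidney PC. The T cell log2 ratios of graft over blood lay between -0.79 and 0.13, and neither T cells nor macrophages reached a 2-fold difference in any comparison as reported. Macrophages passed it under 2 other settings, at -1.28 in heart-labelled TIL with stricter gates, against -0.43, and at -1.10 in kidney TIL where cells of several gates were counted, against -0.49. NK cells had the highest Ifngr1 in 5 libraries, with 579 and 383 CPM in liver and kidney PBMC, 384 and 1042 CPM in heart-labelled and liver-labelled TIL and 501 CPM in liver PC. In heart PBMC the 425 CPM of NK cells stood below the 473 CPM of T cells, with overlapping intervals. The 1042 CPM (692 to 1506) came from 28 UMIs in 29 cells. First and second gate had intervals apart in 3 libraries.

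The signalling chain Ifngr2 was sparse, with 1294 UMIs in all kept cells of the series. Macrophages held more of it per UMI than T cells, with intervals apart, in 3 graft libraries. In liver PC macrophages had 43.2 CPM (34.6 to 53.2) and T cells 9.17 (7.28 to 11.4). In heart-labelled TIL macrophages had 46.1 CPM (31.9 to 64.4) and T cells 13.9 (10.7 to 17.7), and in liver-labelled TIL 39.4 (27.5 to 54.8) and 18.6 (14.02 to 24.1). In the blood the intervals overlapped. Macrophages and T cells of heart PBMC, with 7 UMIs each, had 26.8 CPM (10.8 to 55.3) and 17.7 (7.11 to 36.5). Those of liver PBMC had 65.9 (43.4 to 95.9) and 12.4 (1.503 to 44.8), the latter from 2 UMIs. Neutrophils of the blood had 41.6 and 39.0 CPM in heart and liver PBMC. NK cells held 0 Ifngr2 UMIs in 5 of the 6 libraries where they were counted, which with a floor of 3 UMIs allows up to 24.96 CPM in kidney PBMC, 27.8 in liver PC, 39.4 in liver PBMC and 105 and 112 in heart-labelled and liver-labelled TIL. In both of the last the limit was above the macrophage level, so NK cells could not be placed there. In both kidney grafts the macrophage sums held 1 and 0 UMIs, too few to place. No graft-to-blood difference of 2-fold was called for Ifngr2 as reported. Under other settings it was called 3 times, in both directions, at -1.05 in T cells of heart-labelled TIL where cells of several gates were counted, at -1.08 in macrophages of liver PC with stricter gates and at 1.03 in T cells of liver-labelled TIL with each cell weighted equally.

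**Figure D2:**
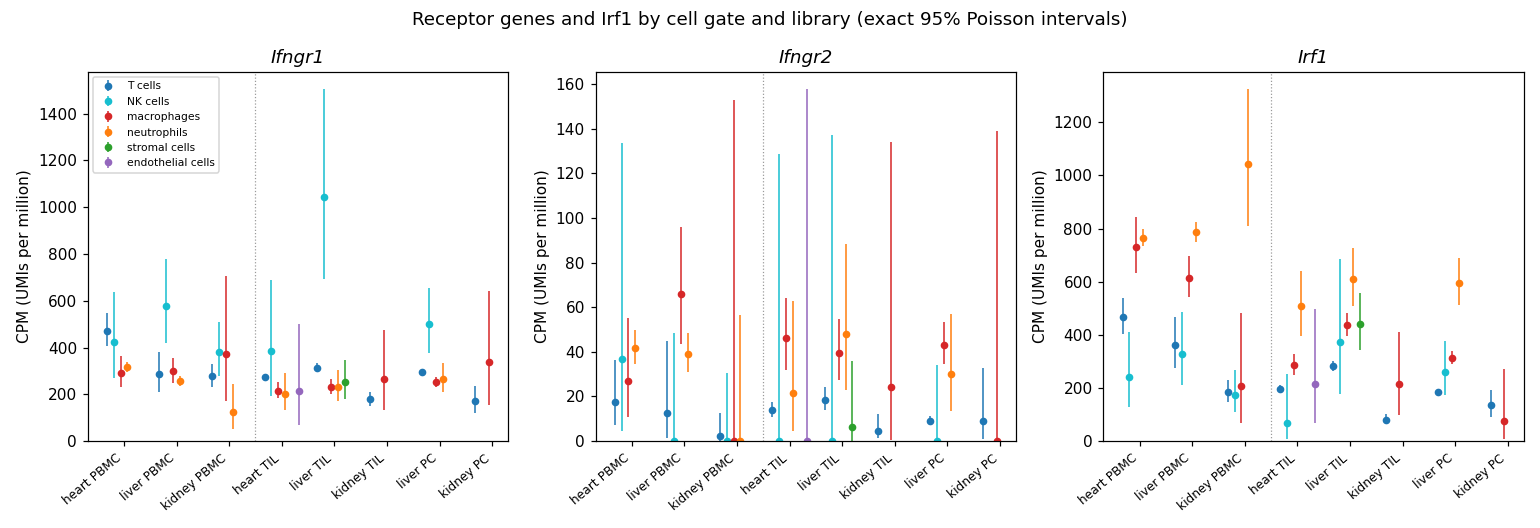
Levels of Ifngr1, Ifngr2 and Irf1 in CPM (y axes) in each library (x axes), 1 point per cell gate of at least 20 cells with exact 95% Poisson intervals, blood left of the dotted line. Ifngr1 was highest in NK cells in 5 libraries, Ifngr2 was at most 65.9 CPM in any of these gates, and Irf1 was highest in neutrophils in 6 libraries. Irf1 in T cells ran from 186 to 468 CPM in blood and from 80.8 to 282 CPM in grafts.

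Irf1, the early interferon target, was not higher in the graft in any comparison. In T cells of heart, liver and kidney PBMC it had 468 CPM (403 to 540), 360 (273 to 465) and 186 (148 to 230). In the grafts it had 197 CPM (185 to 210) in heart-labelled TIL, 282 (263 to 302) in liver-labelled TIL, 80.8 (62.9 to 102) in kidney TIL, 187 (178 to 196) in liver PC and 135 (91.2 to 193) in kidney PC. The T cell log2 ratio was -1.24 (-1.47 to -1.01) for heart-labelled TIL and -1.19 (-1.68 to -0.72) for kidney TIL, past 2-fold, and -0.35, -0.94 and -0.46 for liver-labelled TIL, liver PC and kidney PC. The background share at least 2-fold lower in T cells was 4.75%, 3.07%, 11.0%, 1.83% and 20.6% for heart-labelled and liver-labelled TIL, kidney TIL, liver PC and kidney PC. With the labels of both TIL libraries exchanged, heart-labelled TIL was -0.86 over liver PBMC and liver-labelled TIL -0.73 over heart PBMC, neither past 2-fold. With at least 1000 UMIs per cell, liver-labelled TIL and liver PC passed 2-fold as well, at -1.09 and -1.43.

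Neutrophil markers, of the cells in which Irf1 was highest, were also lower in T cells of each graft than of its blood. Across libraries they did not always follow Irf1. T cells of liver-labelled TIL had more Irf1 than those of kidney PBMC, 282 against 186 CPM, and fewer marker UMIs. The summed level of S100a8, S100a9, Retnlg, Ly6g, Mmp8, Cxcr2 and Ltf in T cells was 115428, 51002 and 18059 CPM in heart, liver and kidney PBMC, with 6 or 7 of the 7 genes counted. In T cells of the grafts it was 6031 and 5243 CPM in heart-labelled and liver-labelled TIL, 67.9 in kidney TIL, 6657 in liver PC and 176 in kidney PC, with 3 of the 7 genes counted in kidney TIL and 4 in kidney PC. As a share of the neutrophil level of the same library, T cells of heart, liver and kidney PBMC held 61.0%, 45.8% and 17.8% of Irf1 and 53.6%, 36.2% and 10.9% of these markers. In heart-labelled and liver-labelled TIL and in liver PC they held 38.87%, 46.3% and 31.3% of Irf1 and 25.8%, 29.7% and 12.4% of the markers. The part of neutrophil RNA in the Irf1 differences was not tested.

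In macrophages Irf1 had 732 CPM (632 to 843) in heart PBMC and 615 (542 to 696) in liver PBMC, against 286 (249 to 327) and 437 (395 to 483) in heart-labelled and liver-labelled TIL and 313 (290 to 339) in liver PC. The log2 ratio was -1.35 (-1.65 to -1.07), -0.49 (-0.73 to -0.26) and -0.97 (-1.19 to -0.76). With the TIL labels exchanged, heart-labelled TIL was at -1.10 over liver PBMC, past 2-fold, and liver-labelled TIL at -0.74 over heart PBMC. The background share at least 2-fold lower in macrophages was 8.89%, 11.2%, 14.5%, 6.02% and 22.0% in the order given for T cells. The kidney macrophage sums held at most 9 Irf1 UMIs and were not compared. Where all barcodes or cells of several gates were counted, they passed the minimum, at -1.34 and -1.46 in kidney TIL and at -2.25 and -2.46 in kidney PC, and liver PC was past 2-fold at -1.02 and -1.11. With at least 1000 UMIs per cell liver PC was at -1.05. The macrophage gate of heart PBMC held 179978 CPM of the neutrophil markers, against 215440 in neutrophils, and its Irf1 was 95.5% of the neutrophil level. In liver PBMC macrophages the markers had 62164 CPM, and in those of heart-labelled and liver-labelled TIL and liver PC they had 5326, 4516 and 7074 CPM. These macrophage gates of the blood therefore carried many more neutrophil UMIs than those of the grafts, and their part in the Irf1 ratios was not tested. Neutrophils had the highest Irf1 in 6 of the 6 libraries where they were counted, with 766, 786 and 1044 CPM in heart, liver and kidney PBMC and 508, 610 and 597 CPM in heart-labelled and liver-labelled TIL and in liver PC.

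Cxcl9 had the highest log2 ratio of graft over blood among the 7 genes in T cells in 5 of 5 comparisons. In macrophages the ratio of Ifng was larger in liver-labelled TIL, at 6.49 against 0 blood UMIs. It was also larger in both kidney grafts, from fewer than 10 UMIs. The level of Cxcl9 was highest in macrophages in 5 of 8 libraries. Neutrophils led in heart PBMC, at 9.25 CPM, and in kidney PBMC, at 107.5 CPM, with intervals that met those of macrophages. Macrophages of heart, liver and kidney PBMC had 7.66 CPM (0.928 to 27.7), 41.5 (24.2 to 66.5) and 82.8 (10.02 to 299), from 2, 17 and 2 UMIs. In the grafts they had 706 CPM (646 to 769) in heart-labelled TIL, 1091 (1024 to 1162) in liver-labelled TIL, 2478 (2022 to 3005) in kidney TIL, 1381 (1330 to 1433) in liver PC and 1618 (1171 to 2180) in kidney PC. No interval of a graft met one of the blood. The macrophage log2 ratio was 6.35 (4.67 to 9.57), 4.68 (4.03 to 5.50), 4.89 (3.01 to 7.97), 5.02 (4.37 to 5.84) and 4.27 (2.35 to 7.38) in that order, at least 2-fold higher in 5 of 5. The background share at least 2-fold higher in macrophages was 39.8%, 18.8%, 30.5%, 24.0% and 31.5%.

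Within the grafts macrophages led Cxcl9 in 4 libraries and endothelial cells in heart-labelled TIL, where 28 endothelial cells had 1325 CPM (900 to 1880), above the macrophages there. Neutrophils followed, with 515 CPM (403 to 648), 907 (783 to 1047) and 820 (721 to 929) in heart-labelled and liver-labelled TIL and in liver PC. The neutrophil gates of these libraries held 20688, 17674 and 14888 CPM of the 6 macrophage check markers together, near the 22378, 20275 and 20302 CPM of the macrophage gates. The part of macrophage RNA in the neutrophil levels of Cxcl9 and Cxcl10 was not tested. Stromal cells of liver-labelled TIL had 635 CPM (516 to 774). Macrophages rich in the complement genes C1qa, C1qb and C1qc had 1558 CPM (1493 to 1626) in liver PC, Kupffer cells 984 (849 to 1134), and monocyte-like cells with Chil3 or Ly6c2 and no C1q UMI had 1390 (1225 to 1572). In heart-labelled TIL the C1q-rich cells had 768 CPM (692 to 850) and the monocyte-like cells 353 (202 to 574). In the blood those monocyte-like cells had 8.26, 31.4 and 103 CPM in heart, liver and kidney PBMC. After thinning, 36.7% of liver PC macrophages had a Cxcl9 UMI, against 63.9% before, and 1.49% of liver PBMC macrophages.

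Cxcl10 differed less between graft and blood. Macrophages of heart, liver and kidney PBMC had 238 CPM (182 to 304), 85.5 (59.5 to 119) and 455 (227 to 815). In the grafts they had 263 CPM (227 to 302) in heart-labelled TIL, 468 (425 to 516) in liver-labelled TIL, 1058 (769 to 1421) in kidney TIL, 556 (524 to 589) in liver PC and 489 (261 to 837) in kidney PC. The log2 ratio was 0.15 (-0.27 to 0.58), 2.44 (1.96 to 2.996), 1.22 (0.24 to 2.32), 2.69 (2.22 to 3.23) and 0.10 (-1.17 to 1.41), so 3 of 5 comparisons passed 2-fold. In both others the interval held 0, and both passed 2-fold under other settings. The value of heart-labelled TIL was 1.26 with stricter gates, and that of kidney PC was 1.52 with no minimum of UMIs per cell and 1.09 where cells of several gates were counted. Over all kept cells heart PBMC had 182 CPM (172 to 193) of Cxcl10, and liver and kidney PBMC had 53.1 (47.1 to 59.6) and 66.8 (52.1 to 84.4). These libraries differed in make-up, with 42.5%, 37.4% and 6.21% of UMIs in neutrophils of heart, liver and kidney PBMC. In macrophages the highest value was that of kidney PBMC, with an interval that met that of heart PBMC. In heart PBMC 1 macrophage held 15 of the 62 UMIs, and the level without it was 181 CPM (133 to 240). Neutrophils of heart PBMC had 206 CPM (189 to 223), those of liver PBMC 43.0 (34.4 to 53.0). In liver PC neutrophils had the highest level, 647 CPM (559 to 745), with an interval that met that of macrophages.

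**Figure D3:**
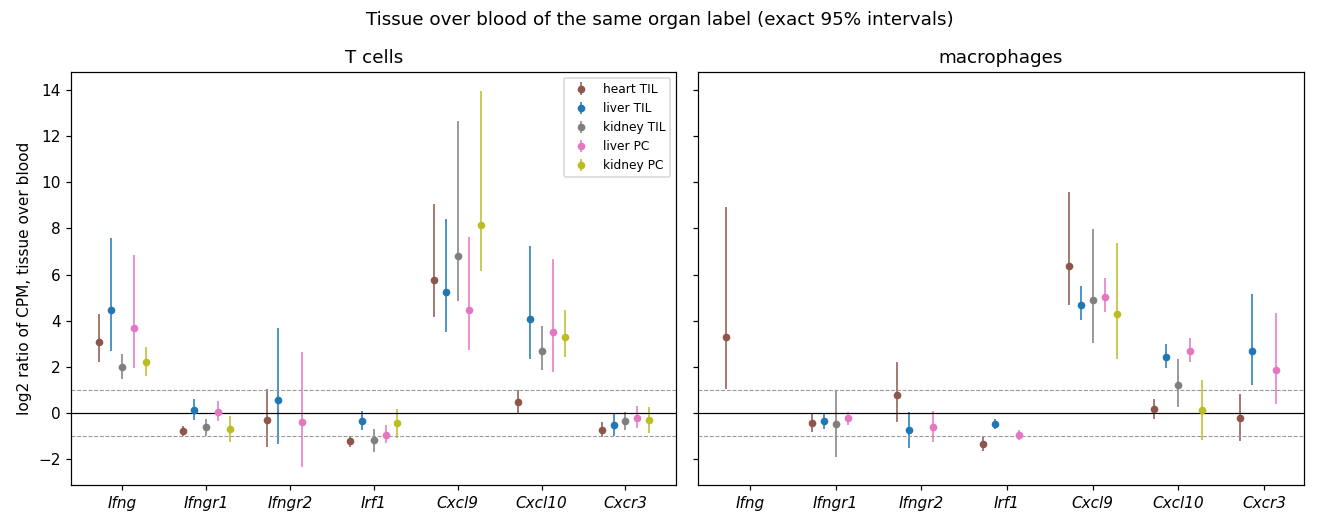
Log2 ratio of CPM in graft over blood of the same organ label (y axis) for the 7 genes (x axis), T cells left and macrophages right, 1 point per graft library with exact 95% intervals and dashed lines at 2-fold, for pairs with at least 10 UMIs in the higher sum and at least 1 in the blood. Cxcl9 lay between 4.27 and 8.14 in each comparison, Ifng in T cells between 1.97 and 4.44, and Ifngr1 and Irf1 stayed at 0.13 or less.

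The balance of both chemokines differed between blood and graft. Of the Cxcl9 and Cxcl10 UMIs of all kept cells, Cxcl9 made up 5.19% (4.04 to 6.55), 31.2% (26.8 to 35.9) and 35.2% (26.2 to 45.0) in heart, liver and kidney PBMC, by exact binomial intervals. In the grafts it made up 70.9%, 69.0% and 68.2% in heart-labelled and liver-labelled TIL and in kidney TIL, 66.6% in liver PC and 71.5% in kidney PC. The share compares libraries and not the levels of both genes, since UMIs are not scaled by how well each gene is captured. In liver PC the share was 71.3% (69.8 to 72.7) in macrophages and 55.9% (51.1 to 60.6) in neutrophils, while in liver-labelled TIL it was 70.0% and 68.7% in those gates.

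**Figure D4:**
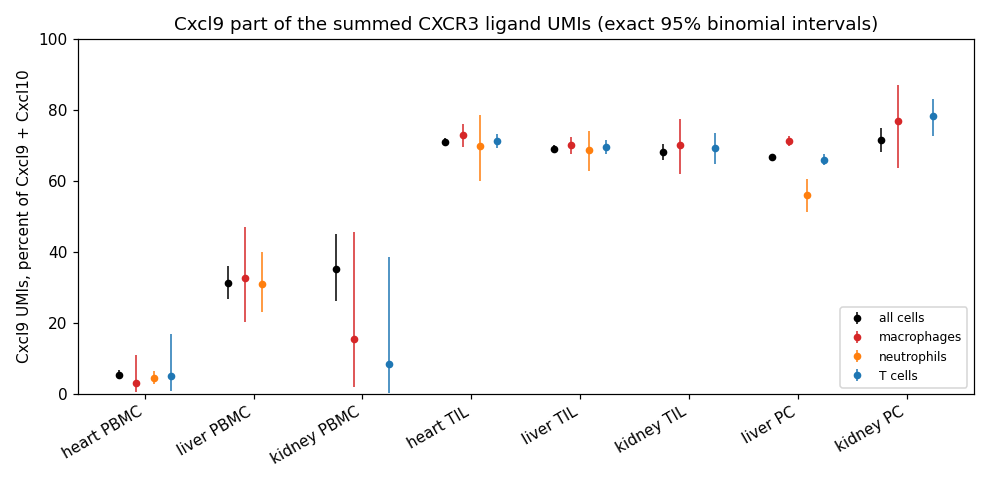
Cxcl9 UMIs as a percentage of Cxcl9 and Cxcl10 UMIs together (y axis) in each library (x axis), for all kept cells and 3 gates where at least 10 such UMIs were counted, with exact 95% binomial intervals. All cells of the blood lay at 5.19% to 35.2% and all cells of the grafts at 66.6% to 71.5%.

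T cells of the grafts also held UMIs of both chemokines. Cxcl9 in T cells was 328 CPM in heart-labelled TIL, 513 in liver-labelled TIL, 365 in kidney TIL, 294 in liver PC and 910 in kidney PC, against 5.06, 12.4 and 2.24 in heart, liver and kidney PBMC, the latter from 2, 2 and 1 UMIs. The T cell log2 ratio ran from 4.46 to 8.14 for Cxcl9, at least 2-fold higher in 5 of 5. For Cxcl10 it was 0.46 for heart-labelled TIL and 2.68 to 4.08 for the other 4. The former passed 2-fold at 1.08 with at least 1000 UMIs per cell and at 1.39 with stricter gates. With the TIL labels exchanged, heart-labelled TIL was at 3.32 over liver PBMC and liver-labelled TIL at 1.22 over heart PBMC. Beside these values stand those of macrophage genes in the same T cells. The T cell level of Cxcl9 was 46.5%, 47.0%, 14.8%, 21.3% and 56.3% of the macrophage level in heart-labelled and liver-labelled TIL, kidney TIL, liver PC and kidney PC. The median over the macrophage markers with at least 30 UMIs (of Adgre1, Cd68, Lyz2, C1qa, C1qb and Cd14) was 45.7%, 44.02%, 17.8%, 21.5% and 54.7%, with ranges of 30.2% to 51.4%, 29.6% to 49.7%, 16.2% to 18.1%, 17.6% to 33.9% and 53.1% to 87.3%. Cxcl9 in T cells was inside the range of those markers in 4 of the 5 grafts. In kidney TIL it was below the lowest of them, with an interval (11.8% to 18.6%) that met theirs. For Cxcl10 the T cell level was 50.6%, 48.1%, 15.4% and 27.3% of the macrophage level in the first 4 of these libraries. These lay inside the marker ranges in 3 libraries, and in kidney TIL the interval (10.9% to 22.1%) held the range. The part of macrophage RNA in the T cell sums was not tested.

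Lymphocyte genes were likewise counted in macrophages. Macrophage Ifng was 22.9%, 30.6%, 55.9%, 14.7% and 64.2% of the T cell level in those 5 grafts, and the T cell markers had medians of 26.0%, 28.3%, 42.7%, 12.2% and 67.3%. The Ifng share lay inside the range of those markers in 4 grafts, of which both kidney ones rested on 7 and 6 macrophage UMIs. In liver PC it was 14.75% (10.96 to 19.4), not apart from the highest marker at 14.56% (13.1 to 16.2). Ifng was called higher in graft macrophages in 3 of 5 comparisons, heart-labelled and liver-labelled TIL and liver PC, where 39.8%, 18.8% and 24.0% of all genes were. From 1 blood UMI in heart PBMC the log2 ratio was 3.28 (1.01 to 8.93). Against the 0 UMIs in liver PBMC, the level in liver-labelled TIL was 12.1-fold that of a floor of 3 UMIs in the blood sum. In liver PC it was 3.48-fold that floor. The exact lower limits of these log2 ratios were 3.27 and 1.45. The kidney macrophage sums held fewer than 10 Ifng UMIs. They passed the minimum and 2-fold with no minimum of UMIs per cell, at 2.58 in kidney TIL and 2.82 in kidney PC, and again where cells of several gates were counted, with 3.42 in kidney PC. The part of carried-over RNA in these values was not tested.

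**Figure D5:**
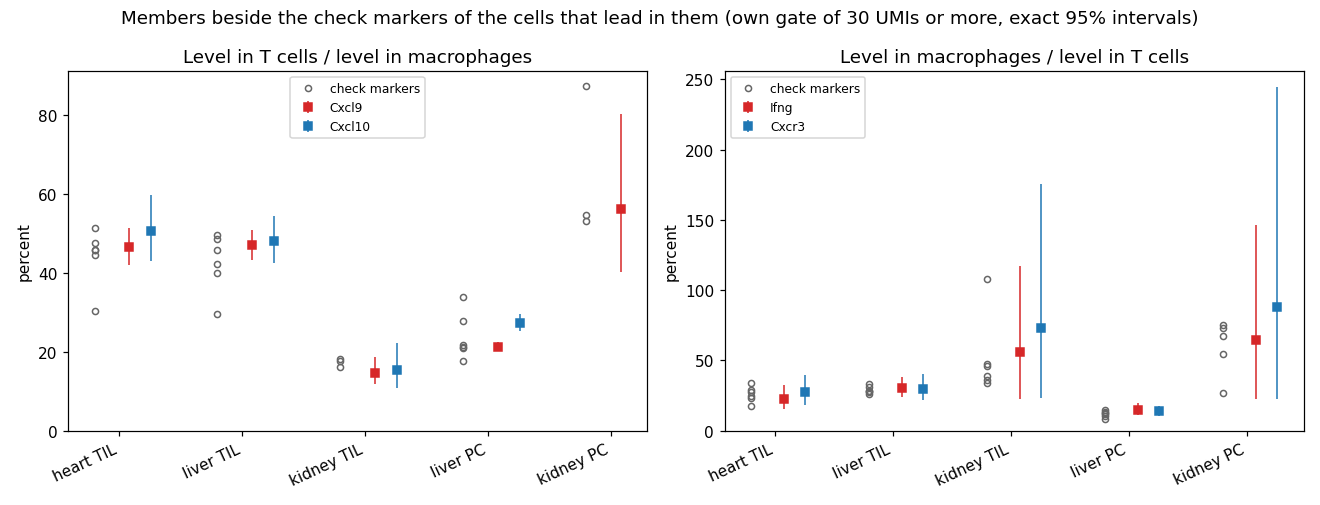
Level of a gene in one gate as a percentage of its level in the gate that leads it (y axes), for the 5 graft libraries (x axes), with exact 95% intervals on the members and open circles for each check marker with at least 30 UMIs. In T cells (left) Cxcl9 lay inside the range of the macrophage markers in 4 libraries and within counting error of it in kidney TIL, and in macrophages (right) Ifng lay inside the range of the T cell markers in 4 libraries and within counting error of it in liver PC.

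Cxcr3 was highest in T cells in 8 of 8 libraries. T or NK cells led it in 7 with at least 1000 UMIs per cell, with no minimum, with stricter gates and with thinned cells. T cells had 253 CPM (206 to 307), 248 (177 to 338) and 213 (172 to 260) in heart, liver and kidney PBMC. In the grafts they had 152 CPM (141 to 163) in heart-labelled TIL, 173 (158 to 188) in liver-labelled TIL, 164 (138 to 194) in kidney TIL, 214 (204 to 224) in liver PC and 171 (121 to 235) in kidney PC. The log2 ratio of graft over blood was -0.73, -0.52, -0.37, -0.21 and -0.31, below 0 in 5 of 5 and past 2-fold in none. With at least 1000 UMIs per cell, heart-labelled TIL passed 2-fold at -1.06. The intervals of both libraries with doubted labels left out 0, while those of kidney TIL, liver PC and kidney PC held it. NK cells had 74.0, 92.0 and 41.6 CPM in heart, liver and kidney PBMC and 121 CPM (64.2 to 206) in liver PC, and the first and second gate had intervals apart in 1 library only. B cells of liver PC had 199 CPM (106 to 341) from 13 UMIs in 37 cells, beside 29.97 and 15.4 CPM in the B gates of heart and liver PBMC. These gates held different mixes: the plasma cell genes Jchain, Mzb1, Xbp1 and Igkc summed to 58050 CPM in liver PC and to 7260 and 8814 CPM in heart and liver PBMC, so the values are not compared.

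CD8 T cells had 312, 284 and 206 CPM of Cxcr3 in heart, liver and kidney PBMC and between 162 and 210 CPM in the grafts. CD4 T cells of liver PC had 337 CPM (258 to 433), above the 210 CPM (199 to 220) of CD8 T cells there. Cycling T cells had 227 CPM (213 to 241) and the other T cells 202 (189 to 215) in liver PC, and 221 (186 to 261) and 160 (144 to 177) in liver-labelled TIL. After thinning, 9.92% of liver PC T cells had a Cxcr3 UMI, against 28.3% before, and 1.96% of its macrophages. Macrophage Cxcr3 passed 2-fold over liver PBMC in liver-labelled TIL, at 2.67 (1.18 to 5.15), and in liver PC, at 1.87 (0.39 to 4.32), from 3 blood UMIs. Its level in liver PC was 13.8% of that of T cells, beside a median of 12.2% for the T cell markers.

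The ratios of both libraries with doubted labels were set against the other blood next. In T cells with the labels exchanged, Ifng was 3.62 over heart PBMC and 3.91 over liver PBMC, and Cxcl9 was 6.41 and 4.62, so both stayed past 2-fold. Cxcl10 was 1.22 and 3.32, Irf1 -0.73 and -0.86, Ifngr1 -0.59 and -0.06, Ifngr2 0.07 and 0.15 and Cxcr3 -0.55 and -0.71. In macrophages Cxcl9 was 6.98 and 4.06, Cxcl10 0.98 and 1.61, Irf1 -0.74 and -1.10, Ifngr1 -0.33 and -0.47, Ifngr2 0.54 and -0.51 and Cxcr3 0.06 and 2.37, and Ifng over heart PBMC was 4.22. Against the 0 Ifng UMIs of liver PBMC macrophages, the Ifng level in heart-labelled TIL was 6.29-fold that of a floor of 3 UMIs. Without both libraries Ifng in T cells, and Cxcl9 in T cells and in macrophages, were higher in 3 of 3 comparisons. Cxcl10 was then higher in 3 of 3 in T cells and 2 of 3 in macrophages, and Irf1 lower in 1 of 3 and 0 of 3. In macrophages Ifng and Cxcr3 were each higher in 1 of 3, from 3 of 5 and 2 of 5 with both libraries.

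The joint detection of 2 genes in a cell was compared next. With cells thinned to 500 UMIs, Cxcr3 was found in 6.68% (4.41 to 9.64) of Ifng-positive and 7.12% (6.38 to 7.91) of Ifng-negative T cells in heart-labelled TIL, and in 11.4% (8.29 to 15.2) and 9.80% (8.95 to 10.7) in liver PC. Cxcl10 was found in 19.8% (15.9 to 24.2) of Cxcl9-positive and 13.5% (11.0 to 16.4) of Cxcl9-negative macrophages in liver PC. In liver-labelled TIL it was found in 64 of 320 (interval 15.8 to 24.8%) and in 16.2% (13.3 to 19.4), and in heart-labelled TIL 10.7% (6.59 to 16.3) and 11.5% (8.99 to 14.4). In T cells Cxcl10 was found in 9.59% (7.55 to 11.96) of Cxcl9-positive and 5.94% (5.24 to 6.70) of Cxcl9-negative cells in heart-labelled TIL. The same shares were 17.3% (14.6 to 20.3) and 9.42% (8.32 to 10.6) in liver-labelled TIL, 13.3% (8.42 to 19.6) and 6.35% (4.87 to 8.12) in kidney TIL and 12.9% (10.5 to 15.6) and 6.48% (5.75 to 7.27) in liver PC. Intervals were apart in these 4 grafts, while in kidney PC the shares were 11.1% (6.05 to 18.3) and 12.8% (8.82 to 17.8). The part of macrophage RNA and of doublets in these T cell shares was not tested.

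Beyond the 7 genes, a list of 39 genes of the pathway was counted, from kinases and interleukin receptors of the inducing side to guanylate-binding proteins, immunity-related GTPases and antigen presentation of the responding side. In T cells 36, 37, 29, 37 and 28 of them had at least 10 UMIs in heart-labelled and liver-labelled TIL, kidney TIL, liver PC and kidney PC or in their blood. Of these 5, 9, 5, 5 and 7 were at least 2-fold higher in the graft and 10, 1, 5, 5 and 6 at least 2-fold lower. That is 13.9%, 24.3%, 17.2%, 13.5% and 25% higher, beside 27.2%, 25.2%, 13.7%, 33.4% and 12.4% of all genes, and 27.8%, 2.70%, 17.2%, 13.5% and 21.4% lower, beside 4.75%, 3.07%, 11.0%, 1.83% and 20.6%. The median log2 ratio of the list was -0.49, 0.07, -0.08, -0.16 and 0.40, beside 0.34, 0.09, 0.13, 0.31 and -0.10 for all genes tested. In macrophages 6, 7, 2, 5 and 2 of 30, 33, 13, 36 and 12 were higher and 6, 2, 4, 7 and 4 lower. Among all genes in macrophages 39.8%, 18.8%, 30.5%, 24.0% and 31.5% were higher and 8.89%, 11.2%, 14.5%, 6.02% and 22.0% lower. The list's median in T cells was below that of all genes in 4 comparisons and above it in kidney PC.

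Chemokines were the members of the list most often called higher. Cxcl16, the ligand of CXCR6, passed 2-fold in 5 of 5 comparisons in T cells and in macrophages, and the chemokine gene Cxcl11 in 5 of 5 and 4 of 5. In macrophages Cxcl16 had log2 ratios of 5.07, 4.97 and 4.06 in heart-labelled and liver-labelled TIL and in liver PC. Nos2, another gene of the list, had a larger ratio than Cxcl16 in macrophages of liver-labelled TIL, 6.30, and 0.22 in those of heart-labelled TIL. Irf8, a transcription factor of myeloid cells, and Iigp1, an immunity-related GTPase, were each higher in T cells in 4 of 5. In heart-labelled and liver-labelled TIL, kidney TIL, liver PC and kidney PC, T cells held 43.4%, 41.3%, 27.2%, 19.1% and 43.4% of the macrophage level of Cxcl16, and for Irf8 the shares were 107%, 67.8%, 44.4%, 74.0% and 81.2%. Against the macrophage markers in T cells given above, Cxcl16 and Iigp1 lay inside the range in 3 of 5 grafts, and Irf8 and Cxcl11 in 1. Where Irf8 was outside, it lay above the highest marker. Cxcl11 lay above it in heart-labelled and liver-labelled TIL. Cxcl16, Cxcl11 and Iigp1 lay above it in kidney TIL and below the lowest marker in kidney PC. For these 4 genes no interval and no minimum of UMIs was used, unlike for the members. Whether their positions lie beyond counting error was therefore not shown. The part of macrophage RNA in these T cell ratios was not tested. On the other side, the guanylate-binding protein gene Gbp2 was lower in macrophages in 4 of 5, at -1.60 in heart-labelled TIL, -1.13 in kidney TIL, -1.22 in liver PC and -1.60 in kidney PC. Socs1 and Socs3, inhibitors of cytokine signalling, and Il18r1, a receptor chain for interleukin 18, were each lower in T cells in 3 of 5. The neutrophil markers given beside Irf1 were also lower in the T cell and macrophage gates of each graft than of its blood, and their part in these lower ratios was not tested.

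The labels of heart TIL and liver TIL were exchanged for the pathway list too, for genes with at least 10 UMIs. In T cells 7 of 37 were higher and 1 lower over heart PBMC, and 5 of 36 higher and 5 lower over liver PBMC. In macrophages 11 of 33 were higher and 0 lower over heart PBMC, and 4 of 32 higher and 9 lower over liver PBMC. The share of all genes called was not computed with the labels exchanged, so these counts are not read as a result about the list. Cxcl16 in macrophages was then 6.22 and 3.82, still past 2-fold, and Nos2 was 2.66 and 3.86. Gbp2 in macrophages was -0.23 over heart PBMC, no longer past 2-fold, and -1.96 over liver PBMC. In T cells over heart PBMC Il18r1 was -0.97, Socs1 0.52 and Socs3 -0.99, none past 2-fold, and over liver PBMC Iigp1 was 0.90 and Socs1 -1.15. Without both libraries Cxcl16 was higher in 3 of 3 comparisons in T cells and in macrophages, Cxcl11 in 3 of 3 and 2 of 3, and Gbp2 lower in macrophages in 3 of 3. In T cells Irf8 and Iigp1 were then higher in 2 of 3 each, Socs1 and Socs3 lower in 2 of 3 each and Il18r1 in 1 of 3.

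The genes whose level was most like that of a member were ranked over 33 sums of a gate and a library, by Pearson's r of log2(CPM + 10) among 9995 genes with at least 100 UMIs. Sums of 1 library share its depth and free RNA, and sums of 1 gate share a cell type, so r is a description. Cxcl9 was most like Gbp2b (r = 0.95), C1qa (0.95), Cxcl16 (0.94), C1qb (0.93) and C1qc (0.93). Ifng was most like Ldha (0.92), the glycolytic lactate dehydrogenase, and Xcl1 (0.86), a lymphocyte chemokine. Irf1 was most like Ccr1 (0.92), Clec4d (0.89), Mgst1 (0.88), Fgr (0.86) and Il1b (0.86). Cxcl10 was most like Ly6i (0.86), Ifngr2 most like Il27 (0.84), and Cxcr3 most like Pkp3 (0.82), with the T cell genes Thy1 (0.81) and Lck (0.81) next. Ifngr1 was most like the NK receptor genes Klra8 and Klra9, at 0.67, and both belong to genes that define the NK gate. Among the members r was 0.75 for Cxcl9 and Cxcl10, 0.58 for Ifng and Cxcl9 and -0.65 for Ifng and Irf1.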

How the data were processed

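The libraries were Microwell-seq libraries of mouse allografts, 1 for each of 8 conditions. The authors deposited raw UMI counts per gene and barcode, made with Drop-seq tools and the aligner STAR on GRCm38 with a GENCODE annotation, multi-aligned reads removed and UMIs at 1 mismatch merged. STAR and bcl2fastq are also named in the submitters' processing notes. No normalization had been applied. Barcodes with fewer than 500 UMIs were left out, and gates were set by marker UMIs with cells that met several gates left out. Here counts were summed by gate and library and given as CPM, with 95% Poisson intervals of the exact kind. Ratios of graft over blood had 1 CPM added and an exact conditional binomial interval with nothing added, and were called at 2-fold with at least 10 UMIs in the higher sum. Shares had exact (Clopper-Pearson) intervals, after thinning to 500 UMIs with seed 0. Doublets were not called, and none are known to have been removed. No test across conditions was run, since each had 1 library and no replicate. The ratio rule and the likeness ranking were tried on simulated data, and no outcome of that is given here. The members and all lists were chosen with earlier results of these data known, by a rule that named the 7 members, counted the 39 pathway genes and took the 5 most alike genes of each member, of which the first ones are named. A pathway gene and a marker gene of the lists are not reported here, and all counts and medians leave them out. Alternatives changed the UMI floor, the gates, the scaling, the weighting of cells, the pseudocount and the TIL labels. Python 3.11.15, numpy 2.4.6, scipy 1.17.1 and pandas 2.3.3 were used. Promoter stretches came from RefSeq (GRCm38.p6) and gene positions from GENCODE on GRCm38, in a release that may differ from that of the authors.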

Additional observations from a re-analysis of the deposited data

Results flagged for a closer look

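Barcodes under 500 UMIs, which the reported comparisons left out and the alternative with no minimum of UMIs per cell used, held Ifng and Cxcl9 in both kidney grafts. The 7995 such barcodes of kidney TIL had 309 CPM of Ifng (288 to 332) and 1091 CPM of Cxcl9 (1050 to 1133), and the 9205 of kidney PC had 275 CPM of Ifng (256 to 295) and 1342 CPM of Cxcl9 (1300 to 1385). The 8857 such barcodes of kidney PBMC had 42.0 CPM of Ifng (34.2 to 51.1) and 24.97 CPM of Cxcl9 (19.1 to 32.1). The graft values were flagged because they lay above a floor of 3 UMIs in barcodes outside the reported comparisons. That floor was 1.22 CPM in kidney TIL and 1.03 CPM in kidney PC, and the blood was not part of the rule. Beside these barcodes, the gated T cells of kidney TIL and kidney PC had 301 and 352 CPM of Ifng. With 1 library per condition, no group was large enough to look for a sample far from the others.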

How the results depend on the processing

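Each condition had 1 library, so no replicate block was used. Graft against blood over the 3 organs, with organ as a block, was not tested. With 1000 UMIs per cell, the libraries led by macrophages, stromal or endothelial cells for Cxcl10 fell from 7 to 4, those led by another gate than T and NK cells for Ifngr1 from 2 to 1, and those led by T or NK cells for Irf1 rose from 1 to 2. With stricter gates the same counts were 3, 0 and 2. Both settings left fewer gates with 20 cells. Without the libraries labelled heart TIL and liver TIL, chosen as an alternative after the data were seen, 16 of the 31 member comparisons with at least 10 UMIs were higher in the graft, against 27 of 59. Of all genes with at least 10 UMIs, 24.0% and 25.6% were. The libraries led by T or NK cells for Ifng fell from 8 to 7 under 3 alternatives, and those for Cxcr3 under 4. Of the 30 called ratios, 6 had no value with 1000 UMIs per cell and 3 had none with stricter gates, since a gate fell under 20 cells. No called ratio that had a value changed direction under an alternative, and among these calls were lost under 2 alternatives. Ifng in T cells of kidney PC was 0.93 with stricter gates, against 2.19. With the TIL labels exchanged, the Irf1 ratio of TIL over heart PBMC was -0.73 in T cells and -0.74 in macrophages. In that setting it came from the library labelled liver TIL. The cause was not tested. Calls were gained under 6 alternatives, at most 8 in one of them, and the T cell Cxcl10 ratio of TIL over heart PBMC passed 2-fold under 3. The calls gained are given beside the results. Leaving out barcodes found in more than 1 library changed 0 calls. Depth limited Ifngr2, the NK cells and the kidney macrophages.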
